A study of Mus musculus with 6 samples.

Results

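The neutrophil granule and calprotectin genes are 9 genes that neutrophils and their precursors use for antimicrobial proteins, for proteases and for survival signalling. They were chosen by name: S100a8, S100a9, Csf3r, Retnlg, Ngp, Camp, Ltf, Elane and Mpo. Of these, 8 were each read by 1 probe set annotated to that gene alone, out of 16537 genes tested. No probe set used here was annotated to Camp, which was not analysed here. Signals were measured on single-channel microarrays in whole lung of mice after naphthalene, a compound that injures the club cells of the conducting airway. The 6 arrays comprised 3 labelled wild type and 3 labelled null for Falcor, a long non-coding RNA gene beside the transcription factor gene Foxa2, and all 6 carried 1 mixed strain label of CD1 and C57Bl6. Per the labels, lung was taken 28, 29 and 30 days after naphthalene for wild type replicates 1, 2 and 3, and after 31, 32 and 33 days for Falcor-null replicates 1, 2 and 3, so that day and genotype cannot be told apart. The labelled days rise by 1 from each sample to the next over both groups, and whether they are actual days is not known. The labels did not name separate animals, sexes or ages, so the p-values measure only how much these samples vary, and that variation may be technical.

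Neutrophils are short-lived granulocytes that form in the bone marrow and enter injured or infected lung from the blood. Their granules form in order during maturation. The azurophil (primary) granules of promyelocytes carry myeloperoxidase and the serine protease neutrophil elastase, the specific (secondary) granules of myelocytes carry lactoferrin, cathelicidin and neutrophilic granule protein, and the gelatinase granules form last. The RNA of azurophil granule proteins is largely gone from mature neutrophils, whereas the calprotectin subunits S100a8 and S100a9, which sequester metal ions and signal through Toll-like receptor 4 and Ager, are abundant in the cytoplasm of mature cells. Csf3r is the receptor for the granulocyte colony-stimulating factor Csf3, and Retnlg is a resistin-like secreted protein of neutrophils. Ltf and other antimicrobial proteins are also made by secretory epithelium.

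The promoters of 5 members are shown because these are the genes whose values set the results apart: the calprotectin pair, the receptor, and the specific granule genes Ngp and Ltf, which differed in direction over all 6 arrays. Each window holds 250 bases before and 50 bases after the gene's annotated start, read 5′ to 3′ on the gene's own strand from RefSeq's GRCm38.p6 table, which held all 9 members. Capitals mark matches to 3 motifs. The C/EBP motif was searched on both strands as TTGCNNAA. The motif of Spi1, a transcription factor also called PU.1, was searched on both strands as GAGGAA. The TATA box, added after the sequences were seen, was searched on the gene's own strand as TATAAA, and in S100a8 it adjoins a Spi1 match without overlapping it.
S100a8, chr3:90668821-90669120, plus strand: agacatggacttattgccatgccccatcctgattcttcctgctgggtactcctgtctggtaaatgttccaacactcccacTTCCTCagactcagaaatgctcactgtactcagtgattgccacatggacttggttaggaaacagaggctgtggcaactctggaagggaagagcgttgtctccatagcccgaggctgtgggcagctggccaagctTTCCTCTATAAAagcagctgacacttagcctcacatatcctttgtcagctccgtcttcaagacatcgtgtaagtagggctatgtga
S100a9, chr3:90695672-90695971, minus strand: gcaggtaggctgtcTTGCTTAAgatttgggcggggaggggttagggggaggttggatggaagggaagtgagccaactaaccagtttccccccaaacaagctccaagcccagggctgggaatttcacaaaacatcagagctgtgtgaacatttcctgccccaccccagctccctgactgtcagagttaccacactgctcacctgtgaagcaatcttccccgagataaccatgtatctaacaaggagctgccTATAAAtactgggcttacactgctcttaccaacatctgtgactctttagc
Csf3r, chr4:126024409-126024708, plus strand: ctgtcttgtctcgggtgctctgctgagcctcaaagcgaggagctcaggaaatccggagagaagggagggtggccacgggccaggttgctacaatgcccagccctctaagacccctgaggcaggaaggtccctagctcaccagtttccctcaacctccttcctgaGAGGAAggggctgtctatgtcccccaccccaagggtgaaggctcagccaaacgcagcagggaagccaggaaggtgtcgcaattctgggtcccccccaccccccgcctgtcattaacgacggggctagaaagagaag
Ngp, chr9:110419558-110419857, plus strand: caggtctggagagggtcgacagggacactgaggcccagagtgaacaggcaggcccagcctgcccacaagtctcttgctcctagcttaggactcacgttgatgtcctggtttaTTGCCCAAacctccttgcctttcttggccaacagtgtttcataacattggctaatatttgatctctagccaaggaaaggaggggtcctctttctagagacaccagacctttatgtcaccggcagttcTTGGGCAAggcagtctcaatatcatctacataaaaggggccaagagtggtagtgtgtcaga
Ltf, chr9:111019042-111019341, plus strand: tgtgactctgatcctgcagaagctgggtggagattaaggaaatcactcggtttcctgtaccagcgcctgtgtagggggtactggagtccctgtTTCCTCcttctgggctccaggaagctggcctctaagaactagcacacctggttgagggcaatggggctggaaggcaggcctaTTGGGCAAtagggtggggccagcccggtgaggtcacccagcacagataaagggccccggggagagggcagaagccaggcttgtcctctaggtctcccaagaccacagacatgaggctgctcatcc

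The C/EBP motif was found in 4 of the 9 members' windows (S100a9, Retnlg, Ngp and Ltf) and in 10.75% of 27025 promoters of the same length. The Spi1 motif was found in 5 of 9 (S100a8, Csf3r, Ltf, Elane and Mpo) and in 28.31% of promoters. S100a8 held the Spi1 motif on the opposite strand from 36 bases before the start, directly followed by the TATA box from 30 bases before it. In S100a9 the TATA box began at base 1 of the annotated transcript. The TATA box was found in these 2 members and in 8.88% of promoters. Ngp held the C/EBP letters at 2 places, 138 and 11 bases before the start, and Ltf held them 75 bases before it. A match is a description of the letters and not a measured site. S100a8 and S100a9 are direct neighbours on chromosome 3 with 0 protein-coding genes between them, and Camp, Ngp and Ltf lie on chromosome 9 in this order, with 8 and 20 protein-coding genes between them.

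The deposited values are log2 signals, so that a difference of 1 is a doubling, and 3 arrays a group set the precision. Medians over all probe sets were 6.72, 6.74 and 6.72 on wild type replicates 1, 2 and 3. They were 6.69, 6.70 and 6.70 on Falcor-null replicates 1, 2 and 3. The lowest signals were 3.22, 3.22 and 3.19 on the wild-type arrays against 2.32, 2.09 and 2.42 on the others. Both measures separated the groups, and the source of this was not tested. The Falcor probe set itself (9030622O22Rik) did not read lower but higher where the label is Falcor-null, at 4.69, 5.01 and 5.45 in wild-type lung against 6.82, 6.34 and 6.32 in lung labelled Falcor-null. All directions are therefore those of the arrays labelled Falcor-null and rest on these labels. Of 16537 genes, 92 (0.556%) passed an adjusted p of 0.05 in limma, and none of the 8 measured members did. At an unadjusted p of 0.05, 2 of 8 members (S100a8 and Csf3r) passed as lower, where 7.65% of all genes did. S100a8, S100a9 and Csf3r, 3 of 8, were lower on every array labelled Falcor-null than on any wild-type array, where 10.6% of all genes were. In direction, 7 of 8 members were lower, with a median log2 difference of -0.84 against 0.00 (0.0026) over all genes. The median of the members was -0.36 without wild type replicate 3, with 8 of 8 lower. In whole lung, fewer neutrophils, less RNA per neutrophil and a change in other cells that express these genes cannot be told apart.

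**Figure D1:**
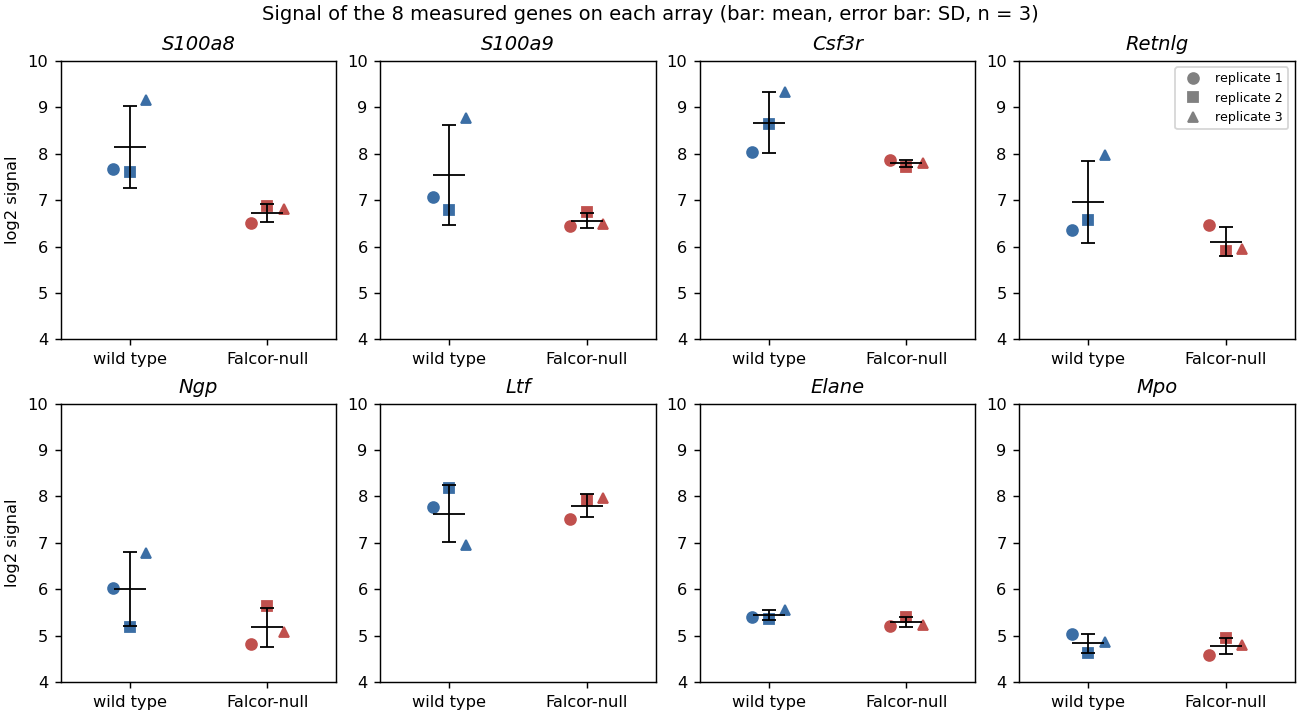
Log2 signal (vertical axis, the same in each panel) of the 8 measured members on each of the 6 arrays. Points are arrays, with the replicate number as shape, and bars are group means with the SD (n = 3). Wild type replicate 3 gave the highest value of 6 members, 9.17 for S100a8 among them, and the lowest of Ltf, 6.95.

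The calprotectin subunits had the largest differences of all members and did not pass the test. S100a8 gave 7.67, 7.60 and 9.17 on wild type replicates 1, 2 and 3, and 6.51, 6.87 and 6.81 on Falcor-null replicates 1, 2 and 3. The groups did not overlap and stood 0.72 apart, and wild type replicate 3 lay well above the other 5 arrays. The means were 8.14 ± 0.89 and 6.73 ± 0.19 (SD, n = 3 each), a log2 difference of -1.41 (SE 0.39, 95% interval -2.33 to -0.50) or 2.66-fold lower. Its adjusted p in limma was 0.180. S100a9, its partner in the heterodimer, gave 7.07, 6.78 and 8.78 in wild-type lung against 6.45, 6.75 and 6.48 in lung labelled Falcor-null. These groups were only 0.04 apart, since wild type replicate 2 lay next to Falcor-null replicate 2. The log2 difference of S100a9 was -0.98 (SE 0.47, interval -2.07 to 0.10, limma adjusted p 0.409). The profiles of S100a8 and S100a9, each centred on its mean over the 6 arrays, differed by a root mean square of 0.26, where the median SD of a gene over the 6 arrays was 0.14.

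Csf3r, the receptor through which the colony-stimulating factor supports neutrophil production and survival, gave 8.05, 8.64 and 9.34 in wild-type lung against 7.86, 7.72 and 7.80 in lung labelled Falcor-null. The wild-type values were spread over 1.30 and the others over 0.14, and the groups did not overlap. Its log2 difference was -0.88 (SE 0.28, interval -1.55 to -0.22), or 1.84-fold lower, with an adjusted p of 0.237 in limma. Retnlg gave 6.35, 6.57 and 7.98 in wild-type lung against 6.46, 5.91 and 5.94 in lung labelled Falcor-null. Falcor-null replicate 1 lay above wild type replicate 1, so that these groups overlapped. The log2 difference was -0.86 (SE 0.40, interval -1.80 to 0.08, limma adjusted p 0.405). The centred profiles of Csf3r and Retnlg were the closest pair among the 5 members high on wild type replicate 3, at a root mean square of 0.25.

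The measured specific granule genes differed in direction and neither passed. Ngp, which encodes neutrophilic granule protein, a relative of cathelicidin, gave 6.03, 5.18 and 6.78 in wild-type lung against 4.83, 5.65 and 5.07 in lung labelled Falcor-null. The groups overlapped, with wild type replicate 2 below Falcor-null replicate 2, and the log2 difference was -0.82 (SE 0.39, interval -1.72 to 0.09, limma adjusted p 0.411). Ltf, the iron-binding protein lactoferrin, gave 7.77, 8.17 and 6.95 in wild-type lung against 7.52, 7.92 and 7.96 in lung labelled Falcor-null. Here wild type replicate 3, the highest array for Ngp, was the lowest. The log2 difference of Ltf was 0.17 (SE 0.29, interval -0.51 to 0.85, limma adjusted p 0.856). The centred profiles of Ngp and Ltf were 0.97 apart as a root mean square, against 0.33 for Ngp and S100a9 and 1.17 for Ltf and S100a8.

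The azurophil granule genes gave small differences within their spread. Elane, neutrophil elastase, gave 5.41, 5.35 and 5.56 in wild-type lung against 5.22, 5.41 and 5.24 in lung labelled Falcor-null. The groups overlapped, and the log2 difference was -0.15 (SE 0.09, interval -0.37 to 0.07, limma adjusted p 0.530). Mpo, myeloperoxidase, gave 5.03, 4.62 and 4.86 in wild-type lung against 4.59, 4.94 and 4.79 in lung labelled Falcor-null. The lowest wild-type array and the lowest array labelled Falcor-null were nearly level, and the log2 difference was -0.06 (SE 0.13, interval -0.37 to 0.25, limma adjusted p 0.885). The probe sets of Elane and Mpo lay at the 18.8 and 7.5 percentiles of mean signal among the genes tested. At such low signal a change may not show, and the intervals bound the change of the probe set rather than that of the RNA. With 3 arrays against 3, 0.1 is the smallest two-sided p that an exact permutation test can give for a gene, and it is the value that S100a8, S100a9 and Csf3r gave.

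**Figure D2:**
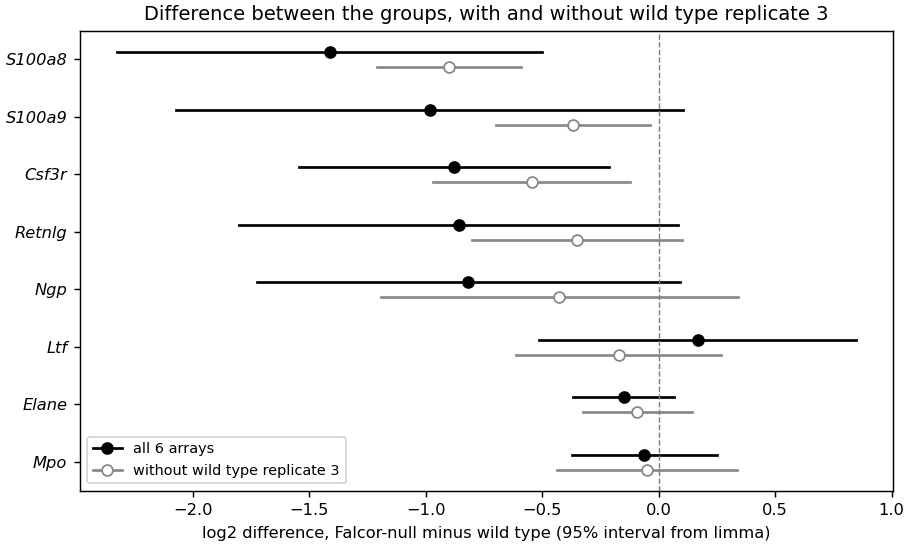
Log2 difference, Falcor-null minus wild type (horizontal axis), of the 8 measured members with 95% intervals from limma, over all 6 arrays (filled) and without wild type replicate 3 (open). The differences of S100a8, S100a9, Csf3r, Retnlg and Ngp were smaller without that array, that of S100a8 moving from -1.41 to -0.90, and that of Ltf changed sign from 0.17 to -0.17.

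On wild type replicate 3, 5 members stood far above their level on the other wild-type arrays. S100a9 was 1.85, S100a8 1.54, Retnlg 1.52, Ngp 1.17 and Csf3r 1.002 above the mean of wild type replicates 1 and 2 on that array, on the log2 scale. At least 99.8% of genes had a smaller excess than each of these 5. Ltf was 1.02 below the same mean, with 0.2% of genes lower still, while Elane (0.18) and Mpo (0.04) moved little. The wild-type SD was larger than that of the arrays labelled Falcor-null for 7 of 8 members, where the medians over all genes were 0.11 (0.1134) and 0.11 (0.1100). Without wild type replicate 3, S100a8 was 1.87-fold lower (log2 difference -0.90, SE 0.13, interval -1.21 to -0.59) with an adjusted p in limma of 0.0774, the smallest of its 16 alternatives, which ran up to 0.382. S100a9 was then 1.29-fold lower (-0.37), Csf3r 1.46-fold (-0.55), Retnlg 1.28-fold (-0.35) and Ngp 1.34-fold (-0.43), with limma adjusted p-values from 0.305 to 0.628. Ltf reversed to -0.17.

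Other genes listed for neutrophils were lower on the arrays labelled Falcor-null in most cases, and 1 of 37 passed. Several are also expressed by other cells, such as oxidase genes by macrophages and antimicrobial genes by secretory epithelium. The share of each cell type was not tested. Across 4 lists (azurophil and promyelocyte, other granule, mature cell and oxidase genes) 29 of 37 measured genes were lower. The groups did not overlap, as lower, for 23 of 37, beside 3 of 8 members and 10.6% of all genes. They did not overlap, as higher, for 2 of 37 (G0s2 and Hp), where 1482 of 16537 genes did so. The median log2 difference was -0.59, and -0.48 without wild type replicate 3, where 28 were lower. Il1r2, the decoy receptor for interleukin 1 on mature neutrophils, gave 6.02, 6.65 and 6.40 in wild-type lung against 4.94, 5.05 and 5.36 in lung labelled Falcor-null. It fell by 1.24 on the log2 scale (SE 0.18, limma adjusted p 0.0383) and lost its call without any array other than wild type replicate 1, with adjusted p-values up to 0.132 (log2 differences -1.36 to -1.09). Blocking on replicate number also ended the call (adjusted p 0.0625).

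Among 10 measured genes of the other specific, gelatinase and ficolin granules, 8 were lower with groups that did not overlap, where 10.6% of all genes were. None passed, and the median log2 difference was -0.72. Hp, picked after its values were seen, was higher with groups that did not overlap (0.13, limma adjusted p 0.465). The siderophore-binding protein Lcn2 gave 11.2, 11.3 and 11.6 in wild-type lung against 10.4, 10.7 and 10.8 in lung labelled Falcor-null, a log2 difference of -0.72 (limma adjusted p 0.0765). In contrast to the calprotectin genes, the wild-type arrays stood close together for Lcn2. Adam8, a membrane protease, gave -0.59 (adjusted p 0.0748), the peptidoglycan recognition protein Pglyrp1 -1.06 (adjusted p 0.132) and the gelatinase Mmp9 -0.85 (adjusted p 0.133), all in limma. Cd177, a neutrophil surface protein in this list and picked after its values were seen, gave 8.43, 9.02 and 8.83 in wild-type lung against 7.07, 6.49 and 8.19 in lung labelled Falcor-null. The list's ficolin gene Fcnb, picked likewise, read between 4.33 and 4.73 on all 6 arrays and did not separate the groups.

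The mature neutrophil list had 12 of 16 measured genes lower, 1 passing (Il1r2), and a median log2 difference of -0.69. The groups did not overlap, as lower, for 9 of 16, where 10.6% of all genes did so. After Il1r2, the list's smallest p-values were those of the integrin Itgam (-0.70, limma adjusted p 0.0854) and of the C-type lectin receptors Clec4e (-1.22, adjusted p 0.0997) and Clec4d (-0.97, adjusted p 0.134). The 4 higher genes of this list, picked after their values were seen, were G0s2 (0.35), Hdc (0.48), Trem1 (0.09) and Asprv1 (0.01). Of these only G0s2 had groups that did not overlap (limma adjusted p 0.284). Ly6g, the marker most used to define mouse neutrophils, was not among the genes measured here. The phagocyte oxidase, which makes superoxide in neutrophils and macrophages alike, had 5 of 5 measured subunits and regulators lower, none passing, with a median of -0.58. The groups did not overlap, as lower, for 4 of 5 oxidase genes, beside the same 10.6% of all genes. In this list Rac2 gave -0.68 (limma adjusted p 0.0579), Ncf4 -0.51 (0.187), Cybb -0.71 (0.199) and Cyba -0.50 (0.267). The other azurophil and promyelocyte genes had 4 of 6 lower, none passing, with a median of -0.16. Prtn3, the direct neighbour of Elane on chromosome 10 and a protease of the same granule, gave -0.22 (limma adjusted p 0.508), and Ms4a3, a promyelocyte gene, gave 0.21 (adjusted p 0.468). The lectin receptor Clec12a (-0.66, adjusted p 0.0980) and the protease inhibitor Cst7 (-0.34, adjusted p 0.199) are not restricted to promyelocytes. They were the 2 of 6 in this list whose groups did not overlap, as lower, beside 10.6% of all genes.

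**Figure D3:**
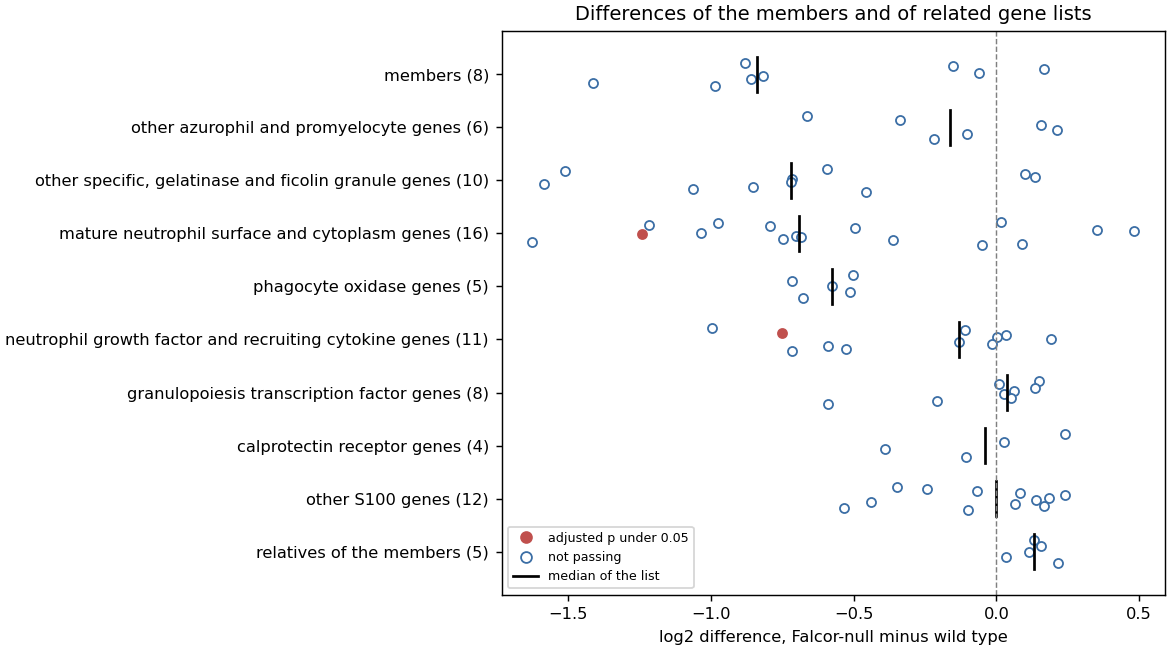
Log2 difference, Falcor-null minus wild type (horizontal axis), of each measured gene in the members and in related lists, with the number of measured genes in brackets and a black line at each median. Filled points passed an adjusted p of 0.05: Il1r2 at -1.24 and Csf2 at -0.75. The median was -0.84 for the members, -0.72 for other granule genes and -0.69 for mature neutrophil genes, against 0.04 for transcription factors and -0.00 (-0.0013) for other S100 genes.

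Among 11 measured growth factor and recruiting cytokine genes, 8 were lower, 1 passed and the median was -0.13. Csf2, the granulocyte-macrophage colony-stimulating factor, gave 5.72, 5.97 and 5.97 in wild-type lung against 5.09, 5.26 and 5.06 in lung labelled Falcor-null, and fell by 0.75 on the log2 scale (SE 0.10, limma adjusted p 0.0324). The groups stood apart, and the call was lost without any array other than wild type replicate 1 (adjusted p up to 0.124, log2 differences -0.81 to -0.71) and when replicate number was a block (adjusted p 0.0780). The Csf2 probe set was dim and was left out by the filter at the 30th percentile of signal, so that this call rests on low signal. Il17f (-0.59), Tnf (-0.71) and Il1b (-0.53) had limma adjusted p-values of 0.101, 0.256 and 0.404. The neutrophil-attracting chemokines Cxcl1 (0.04), Cxcl2 (0.19), Cxcl5 (-0.13) and Cxcl15 (0.00, as 0.0019), picked after their values were seen, were not on 1 side of 0. The list's chemokines Ccl3 (-0.99, limma adjusted p 0.513) and Ccl4 (-0.11, 0.801), picked likewise, were both lower. Ccl3 read 6.51, 9.04 and 6.88 on wild type replicates 1, 2 and 3. Csf3, the ligand of Csf3r, was not among the genes measured here.

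The transcription factors of granulocyte development had 2 of 8 lower, none passing, with a median of 0.04. Spi1, which acts in all myeloid cells, gave -0.59 (limma adjusted p 0.0734), with 7.71, 7.96 and 7.95 in wild-type lung against 7.20, 7.24 and 7.42 in lung labelled Falcor-null. Cebpa (0.15), Cebpd (0.13) and Runx1 (-0.21) had limma adjusted p-values of 0.591, 0.797 and 0.433, and Cebpd changed sign with some single arrays left out. Of the receptors for calprotectin, Tlr4 gave -0.11 (adjusted p 0.649), its partner Ly96 -0.39 (0.428), Ager, abundant in alveolar type 1 cells, 0.24 (0.283) and Bsg 0.03 (0.920), all in limma. The list of other S100 genes, which also held the binding protein gene S100pbp, divided evenly, 6 lower and 6 higher of 12, none passing, with a median of -0.00 (-0.0013). Those with the smallest p were S100a4 (-0.44, limma adjusted p 0.118), S100g (-0.54, 0.175), S100a1 (-0.35, 0.255) and S100a16 (0.19, 0.366). The measured relatives of Retnlg, Mpo and Ltf were 5 of 5 higher, none passing, with a median of 0.13, with the smallest p-values for the peroxidases Epx (0.13, limma adjusted p 0.529) and Lpo (0.16, 0.564) and the transferrin relative Meltf (0.11, 0.679), while Retnla (0.21, 0.857) changed sign without Falcor-null replicate 1.

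Markers of some other cell types moved with the groups or with wild type replicate 3, and their part in the members' differences was not tested. The mean log2 signal of 7 alveolar macrophage markers ran from 8.82 to 9.39 on the wild-type arrays and from 8.39 to 8.95 on the others, with 7 of 7 lower and none passing. The groups did not overlap, as lower, for 2 of 7, where 10.6% of all genes did so. These were Chil3 (-1.12, limma adjusted p 0.0748) and Mrc1 (-0.76, 0.190), picked after their values were seen. For 6 monocyte markers the ranges, 8.41 to 8.56 and 8.31 to 8.45, overlapped and wild type replicate 3 was not the highest, with 4 of 6 lower and none passing. The 5 eosinophil markers overlapped, at 5.48 to 5.80 and 5.40 to 5.60, with 4 of 5 lower and none passing. For 4 B cell markers the ranges were 7.98 to 8.24 and 6.93 to 7.01, with 4 of 4 lower and 2 passing, Jchain (-2.78) and Cd79a (-0.75), at limma adjusted p-values of 0.000311 and 0.0282. Jchain kept its call with replicate number as a block and without each array, whereas Cd79a lost it with the block (adjusted p 0.0925) and without any array other than wild type replicate 3 (up to 0.101). For 5 T cell markers they were 6.99 to 7.36 and 6.27 to 6.45, with 5 of 5 lower and 3 passing, Cd3e (-1.20), Cd3g (-1.15) and Cd4 (-1.23), at limma adjusted p-values from 0.00949 to 0.0324. Cd3g lost its call with the block (adjusted p 0.106) and without any 1 of the 6 arrays (0.0518 to 0.0989). Cd3e lost it without Falcor-null replicate 2 (0.0529), and Cd4 without that array (0.0686) and without wild type replicate 2 (0.0546). The mast cell and basophil markers were not among the genes measured.

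In the lists of platelets, red cells and epithelium the 2 groups overlapped. The 4 measured platelet markers were all highest on wild type replicate 3, where 13.7% of all genes were, and ranged from 6.71 to 7.60 on the wild-type arrays and from 6.68 to 7.22 on the others. The 3 measured red cell markers ranged from 4.93 to 5.51 and from 5.15 to 5.33, with 1 of 3 lower and wild type replicate 1 the highest. The 5 squamous epithelium markers, added because keratinocytes also make calprotectin, ranged from 4.82 to 5.04 and from 4.64 to 4.94, with 3 of 5 lower. The 6 airway secretory markers ranged from 9.65 to 10.7 and from 9.49 to 9.84, and wild type replicate 3 gave the 9.65. Bpifa1 passed (fell by 1.51 on the log2 scale, limma adjusted p 0.0383) and lost its call with the block (0.104) and without any 1 of the 6 arrays (0.0554 to 0.131). The gland protein Bpifb1, with a limma adjusted p of 0.824, read 9.26, 9.31 and 6.50 on the wild-type arrays, lowest on replicate 3 like Ltf. Unlike Ltf, it lay below wild type replicates 1 and 2 on every array labelled Falcor-null (8.10, 8.18 and 7.36). Against the mean of wild type replicates 1 and 2, replicate 3 stood at -2.79 for Bpifb1, -2.15 for Reg3g and -0.855 for Scgb3a1. It stood at -0.31 for Bpifa1, -0.02 for Cyp2f2 and -0.01 for Scgb1a1. A link of Ltf to these genes was not tested. No member of the platelet, red cell or squamous lists passed.

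**Figure D4:**
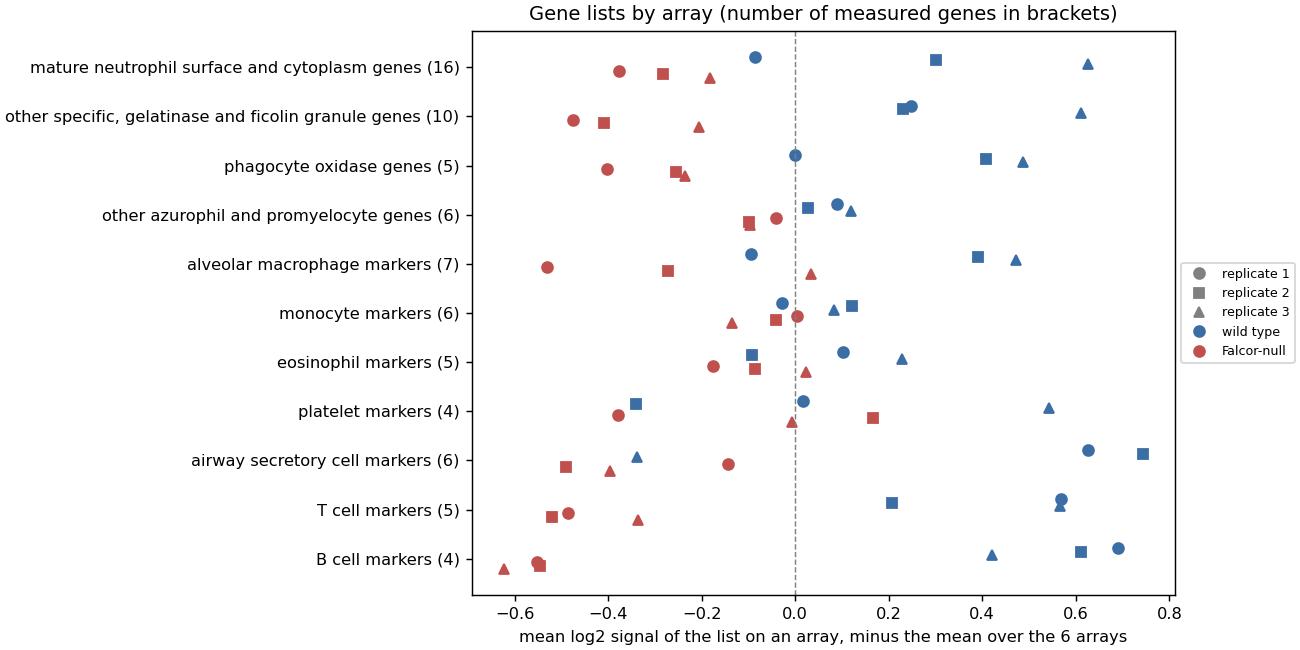
Mean log2 signal of each list on each array minus its mean over the 6 arrays (horizontal axis), with colour for the group and shape for the replicate number. For the mature neutrophil list the wild-type arrays (6.75 to 7.47 before centring) lay above the arrays labelled Falcor-null (6.46 to 6.66), with wild type replicate 3 highest. The airway secretory list was lower on that array (9.65) than on the other wild-type arrays, and within the range of the arrays labelled Falcor-null (9.49 to 9.84).

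The genes most like the calprotectin pair were sought by the root mean square distance of their centred profiles over the 6 arrays, among all genes tested other than the members. The nearest 5 were Stfa2l1 (0.26), Wfdc21 (0.28), Cxcr2 (0.32), Mmp9 (0.38) and Trim30b (0.38), of which Stfa2l1, Cxcr2 and Mmp9 stood in the neutrophil lists already. Stfa2l1, a stefin-like protease inhibitor gene, gave 5.75, 5.97 and 7.82 in wild-type lung against 4.75, 4.95 and 4.97 in lung labelled Falcor-null. Cxcr2, the chemokine receptor of mature neutrophils, gave 7.51, 7.79 and 8.88 in wild-type lung against 6.85, 7.50 and 7.46 in lung labelled Falcor-null. Their high values on wild type replicate 3 follow from choosing genes by likeness to the calprotectin profile, which is high there. The mean profile of Ngp and Ltf was nearest to Zdhhc23 (0.04), Olfr536 (0.07), Muc4 (0.07), Tifab (0.07) and Morc1 (0.07), and that of Elane and Mpo to Hinfp (0.02), Adm2 (0.03), Pramel1 (0.03), Slc4a11 (0.04) and Glrx2 (0.04). The SD over the 6 arrays was 0.91 for the calprotectin profile and 0.13 for that of Elane and Mpo. For the mean of Ngp and Ltf it was 0.27, below that of Ngp alone (0.72) and of Ltf alone (0.43), since the 2 genes lay on opposite sides on wild type replicate 3, so that this mean describes neither gene.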

How the data were processed

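Total RNA of whole lung was amplified, biotinylated and read on 1-colour arrays, per the labels. The authors deposited 1 log2 signal for each probe set and array. Tools named in the submitters' processing notes are oligo, RMA and limma, with no version given. Because RMA gives all arrays nearly 1 distribution, a change shared by most genes would not show. The lowest signals nevertheless differed by group, as given above. Filters, scanner settings and detection calls are not given in the sources used here.

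Of 24173 probe sets, 17476 had exactly 1 gene symbol in the platform annotation, 1308 had several and 5389 none. The latter 2 kinds were left out, and the brightest probe set stood for each of 16537 genes. Gene numbers of 17368 of the 17476 probe sets were matched to RefSeq's table of GRCm38.p6, which served for names, gene order and promoters. Groups and replicate numbers came from the sample titles. Falcor-null was compared with wild type with limma 3.58.1 under R 4.3.3 (lmFit, then eBayes, without covariates, two-sided tests). Benjamini-Hochberg adjustment ran over all genes tested, with 0.05 as the threshold for passing. The script was tested on simulated data.

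The members and lists were chosen with earlier results of these data known. Named were the 9 members and, per list, the genes that passed and up to 4 with the smallest p. Also named were the 5 nearest profiles, passing over gene models with no official name. From the marker lists of other cell types the text gives those that passed, the other measured airway secretory genes, Chil3 and Mrc1. Other names are said to be picked after their values were seen. Replicate numbers were checked for pairing and did not pair the arrays. Alternatives were a block for the replicate number, other scalings, variance settings, array weights, filters on dim probe sets, other uses of several probe sets, another threshold and leaving out each array. The counts and list medians without wild type replicate 3 were added after seeing the data. Figures were drawn with matplotlib 3.10.9.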

Additional observations from a re-analysis of the deposited data

How the results depend on the processing

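No measured member passed under any of the 17 alternatives, and 118 of 121 member differences kept their sign. The exceptions came with single arrays left out: Ltf ranged from -0.17 to 0.44 and Mpo from -0.17 to 0.0339. Among other genes, Cebpd ranged from -0.0095 to 0.29, Bsg from -0.0090 to 0.0509 and Retnla from -0.18 to 0.68. The median difference of the members, -0.84, was -0.36 without wild type replicate 3.

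The number of genes passing, 92, was 18 to 89 with 1 array left out, 280 at an adjusted p of 0.1 and 81 to 131 under 9 other fits. With the replicate numbers as a block it was 32, with no member passing. Deviations from the group means correlated at 0.02, -0.0025 and -0.08 between same-numbered arrays, not every array correlated best with its own number, and the arrays share only a number. Of 653 values of 42 other genes, those of the related lists chosen by smallest p and the markers that passed, 35 lost and 8 gained a call, 5 changed sign and 605 kept both. The genes named for a like profile, the Falcor probe set, the airway secretory genes other than Bpifa1 and those picked after their values were seen were not run under the alternatives, except Mmp9, which is among the 42. No detection call was used, which limits the dim probe sets of Elane and Mpo most. Those 2 and Ngp were left out by the filter at the 30th percentile, and Retnlg also by that at the median. Csf2, which passed the main test, was left out at the 30th percentile, and Il1r2 at the median.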

Other observations

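Some genes outside the neutrophil lists, picked after their values were seen, also stood apart on wild type replicate 3 from the other 2 wild-type arrays. The same search was not made for the other arrays. In the alternative with array weights, these were 0.81, 1.20 and 0.95 on wild type replicates 1, 2 and 3. They were 1.14, 1.07 and 0.88 on Falcor-null replicates 1, 2 and 3, and so did not single out wild type replicate 3. The inducible heat shock genes were low on it, Hspa1b reading 10.4, 9.49 and 7.14 and Hspa1a 7.37, 7.04 and 5.13 on wild type replicates 1, 2 and 3. The arrays labelled Falcor-null spread widely for the same genes, at 8.38, 8.91 and 10.2 for Hspa1b and 7.07, 6.46 and 7.68 for Hspa1a. Hsph1 followed, at 9.61, 9.16 and 7.81 on the wild-type arrays. The gel-forming mucin Muc5b and the trefoil factor Tff2 were low on the same array, Tff2 at 7.33, 7.07 and 5.59. Slfn4, a schlafen gene of myeloid cells, was high there at 5.44, 6.13 and 7.30, and read 5.44, 5.90 and 6.07 on the arrays labelled Falcor-null. The platelet chemokine gene Ppbp was also high there, at 8.69, 7.66 and 9.58, but read 7.70, 9.16 and 8.56 on the arrays labelled Falcor-null.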
